A study of Mus musculus with 22 samples.

Results

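The G1 phase and p53-linked arrest were followed through 8 genes across mouse induced pluripotent stem (iPS) cell lines made with different factors: the D-type cyclins Ccnd1, Ccnd2 and Ccnd3, the inhibitors Cdkn1a, Cdkn2a and Cdkn2c, the p53 target Mdm2, and the stress response gene Gadd45b. They are 8 of the 49997 genes placed in the RefSeq annotation. The genes were chosen with earlier results of these data known. Their members in the data are all chromatin regions that overlapped a gene's extent or the 2500 bp on either side of it, without regard to how the regions behaved. This gave 39 of 135566 regions for acetylation of histone H3 at lysine 27 (H3K27ac), a mark of active promoters and enhancers, and 3 of 68845 for trimethylation at lysine 9 (H3K9me3), a mark of silent heterochromatin. Ccnd3, the longest gene, held 22 of the 39 H3K27ac regions. Gadd45b held 4, Cdkn2a and Cdkn2c 3 each, Ccnd1, Ccnd2 and Cdkn1a 2 each, and Mdm2 1. Cdkn1a, Cdkn2a and Cdkn2c held 1 H3K9me3 region each, and the other genes held none.

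The study set cells reprogrammed with artificial zinc finger transcription factors (ATFs), designed DNA-binding proteins, in place of Oct4 beside cells reprogrammed with Oct4. All cells came from C57BL/6 mouse embryonic fibroblasts. The C2 line received ZFATF1, ZFATF2 and ZFATF3 with Sox2, Klf4 and c-Myc, the C3 line received ZFATF1, ZFATF2 and ZFATF4 with the same partners, and the OSKM line received Oct4, Sox2, Klf4 and c-Myc. All 3 lines were treated with 100 nM 4-hydroxytamoxifen, and each gave 2 chromatin immunoprecipitation sequencing (ChIP-seq) libraries per mark. A further 4 libraries used an antibody to the HA tag of the ATFs in cells at day 20 of reprogramming, 2 from cells with the C2 factors and 2 from cells with an empty vector, both with Sox2, Klf4 and c-Myc. The factor set goes with the line, so the 2 cannot be told apart. C2 and OSKM were set against the same pair of input samples and C3 against a pair of its own, so C3 and its inputs cannot be told apart either. The labels do not say how replicate libraries were made, and p-values here measure only the spread between these libraries.

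In the G1 phase, D-type cyclins bind Cdk4 and Cdk6, and the active kinases phosphorylate the retinoblastoma protein, which frees E2F factors to start DNA synthesis. Cdkn2a encodes p16Ink4a and, from a separate start, p19Arf, which protects p53 from Mdm2. p16Ink4a and the product of Cdkn2c, p18Ink4c, are inhibitors of Cdk4 and Cdk6, while Cdkn1a (p21) inhibits cyclin-dependent kinases more broadly and is a classic target of p53. Mdm2 marks p53 for degradation and is itself induced by p53, and Gadd45b responds to stress and DNA damage. Cdkn1a and the products of Cdkn2a are known as barriers to reprogramming, and pluripotent cells of the mouse have a short G1 phase.

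Upstream sequences are shown first for Ccnd3, Cdkn1a and Mdm2, because their strongest acetylated regions hold these bases and the first annotated start, and for Gadd45b, because regions that fell in C3 lie on both sides of its start. Promoter sequences and starts came from RefSeq (GRCm38.p6), which matched 6 of the 8 members, all but Ccnd1 and Ccnd2. Each line gives the 250 bases before the first annotated start, 5′ to 3′, on the strand of the gene. The Ccnd3 window is chr17:47504801-47505050 and lies in its H3K27ac region 3. The Cdkn1a window is chr17:29090729-29090978 and lies in its region 1. The Mdm2 window is chr10:117710759-117711008 on the minus strand and lies in its region 1. The Gadd45b window is chr10:80929841-80930090, and only its first bases overlap region 2, which ends before the letters marked in that window.

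Ccnd3: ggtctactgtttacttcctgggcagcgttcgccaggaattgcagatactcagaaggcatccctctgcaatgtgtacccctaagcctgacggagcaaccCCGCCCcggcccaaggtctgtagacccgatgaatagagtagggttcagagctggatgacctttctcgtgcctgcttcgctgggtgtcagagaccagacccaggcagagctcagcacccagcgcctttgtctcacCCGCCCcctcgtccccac
Cdkn1a: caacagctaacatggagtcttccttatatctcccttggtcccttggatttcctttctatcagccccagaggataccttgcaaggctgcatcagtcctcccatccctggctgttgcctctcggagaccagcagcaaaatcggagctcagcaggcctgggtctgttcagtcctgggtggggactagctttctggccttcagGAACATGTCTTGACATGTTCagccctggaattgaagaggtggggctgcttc
Mdm2: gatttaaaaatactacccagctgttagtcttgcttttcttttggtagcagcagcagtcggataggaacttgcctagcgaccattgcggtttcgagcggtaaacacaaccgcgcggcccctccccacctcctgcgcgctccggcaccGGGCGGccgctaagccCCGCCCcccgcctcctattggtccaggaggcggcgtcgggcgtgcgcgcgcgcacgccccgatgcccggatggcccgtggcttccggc
Gadd45b: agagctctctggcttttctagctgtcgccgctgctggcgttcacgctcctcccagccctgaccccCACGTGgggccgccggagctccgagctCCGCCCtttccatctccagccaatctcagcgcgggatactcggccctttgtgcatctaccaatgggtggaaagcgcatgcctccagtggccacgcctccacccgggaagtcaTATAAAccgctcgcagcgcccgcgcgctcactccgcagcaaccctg

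Capitals mark matches, on either strand, to any of 4 motifs, and no match overlapped another of a different kind. The first motif was the GC box, bound by Sp1 and related factors, with the letters GGGCGG. The second was the E-box, bound by c-Myc among others, searched with the letters CACGTG. The third was the TATA box of core promoters, searched as the letters TATAAA, and the last was the p53 response element. The p53 element was searched as 20 bases in the usual consensus without a spacer, allowing 1 mismatch outside its fixed C and G letters. Among the windows of the members, only that of the first Cdkn1a start held a p53 element, from base -51 to base -32 before the start, with 1 mismatch. Of all 32851 RefSeq promoter windows of this length, 0.0578% (19) held one. The Gadd45b window held the only E-box, at base -185, and the only TATA box, at base -46, against 6.02% and 12.4% of all windows. Of the windows printed, those of Ccnd3 (2), Mdm2 (2) and Gadd45b (1) held GC boxes, as did 32.7% of all windows. These matches describe letters in a window and say nothing of binding.

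Reads in regions ranged from 7033486 to 17649231 per H3K27ac library and from 3412599 to 8548902 per H3K9me3 library. The members' regions held 8649 to 21031 and 196 to 459 of them, so H3K9me3 at these genes rests on few reads. The lowest H3K27ac counts, 7033486 and 8649, were those of C2 library 2. That library also had the fewest peaks (76915) and the lowest median fold enrichment of peaks (3.62) for this mark. The part of this weaker enrichment in the C2 results below was not tested. Levels below are normalized reads, the authors' read count of a region scaled between libraries, given for libraries 1 and 2 of each line on 1 scale set through the shared OSKM libraries. Fold changes are log2 differences of normalized reads plus 1, with the standard error (SE), from limma with a trend fitted over all tested regions of a pair of lines. A region was called, and is said to have risen or fallen, at a Benjamini-Hochberg adjusted p under 0.05. Marker genes differed from OSKM: the strongest region fell at 6 of 8 pluripotency genes in C2 and 1 of 8 in C3, and rose at 4 of 8 endoderm genes in C2 and 7 of 8 in C3. Over the strongest region of every gene, 9.70% fell and 3.39% rose in C2, and 8.72% and 8.89% in C3. All 8 pluripotency regions averaged 1000 or more normalized reads over the 6 libraries. Of all regions in that class, 29.0% fell in C2, with a median of -0.7, and 4.78% in C3, with a median of -0.21. The medians of the pluripotency list were -1.12 in C2 and -0.51 in C3. All C2 marker calls but that of Zfp42, on chromosome 8, were lost when some library was left out. In C3 those of Gata4, Gata6 and Sox7 held, and the others, with that of Zfp42, were lost. Summed H3K27ac levels of the pluripotency list were 14556 to 19879.5 in C2, 20143 to 32721 in C3 and 36438 to 37014 in OSKM. The endoderm list summed to 1728 to 3020.3, 2885 to 4884 and 763 to 1045, and the fibroblast list, with a region at 6 of 8 genes, to no more than 147 in any library, with Col3a1 at the lowest value of 1 read in 5 of 6 libraries. The part of these markers in the results below was not tested.

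Acetylation at the D-type cyclins moved in opposite directions. Ccnd2 gained H3K27ac in both ATF lines, Ccnd1 lost it in both, and Ccnd3 lost it in stretches inside the gene while the region over its first start was not called. Gadd45b lost acetylation in C3, and Mdm2 in C2. In C2 against OSKM, 6 of the 39 regions were called, 1 higher and 5 lower, where 10.6% of all 100957 tested regions were called, 5.21% higher and 5.38% lower. In C3 against OSKM, 12 were called, 1 higher and 11 lower, where 22.0% of 101600 were called, 13.5% higher and 8.52% lower. Counting regions whose libraries did not overlap between the lines, 22 of the 39 were lower and 5 higher in C2, against 30.3% and 28.8% of all tested regions, and 26 were lower and 8 higher in C3, against 30.4% and 33.0%. The median log2 fold change of the 39 regions was -0.44 in C2 and -0.63 in C3, against -0.01 and 0.03 over all tested regions. Ccnd3 alone holds 22 of the 39, so these counts and medians weigh that gene heavily. With only the strongest region of each of the 8 genes, 1 rose and 2 fell in each line, with medians of -0.61 and -0.31. Over the strongest region of every gene the medians were -0.32 and -0.16, with 9.70% and 8.72% lower and 3.39% and 8.89% higher. All 39 regions passed the filter on low values. The 2 comparisons share the OSKM libraries, so their values are set side by side and not counted as separate support. All 6 calls in C2 were lost when either OSKM library was left out, while 6 of the 12 in C3 held whichever library was left out. Under quantile normalization 1 of the 6 C2 calls (Ccnd2 region 1) and 9 of the 12 C3 calls held, and in the authors' deposited table likewise 1 and 9. The C2 falls were also smaller under quantile normalization, at -0.48 for Ccnd1 region 2, -0.31, -0.51 and -0.61 for Ccnd3 regions 14, 9 and 15, and -0.38 for Mdm2. In the same order, these differences were -0.91, -0.93, -0.79, -0.77 and -0.89 without C2 library 2. Without C2 library 1 they were -1.25, -1.2, -1.01, -0.96 and -1.12.

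The members' falls in C2 were set beside regions of like level, because strong regions as a class were lower in that line. Of 1423 regions averaging 1000 or more normalized reads over the 6 libraries, 29.0% fell in C2 against OSKM and 0.211% rose, with a median of -0.70. The 5 members' regions of that class had a median of -0.64, and 2 fell. Of 24506 regions averaging 100 to 1000 reads, 13.0% fell and the median was -0.32; 3 of the members' 13 fell, with a median of -0.53. In C3 the same classes had medians of -0.21 and -0.12, with 4.78% and 12.3% lower, and the members' medians were -0.31 and -0.79. For the middle class in C3, 6 of 13 members' regions fell.

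**Figure D1:**
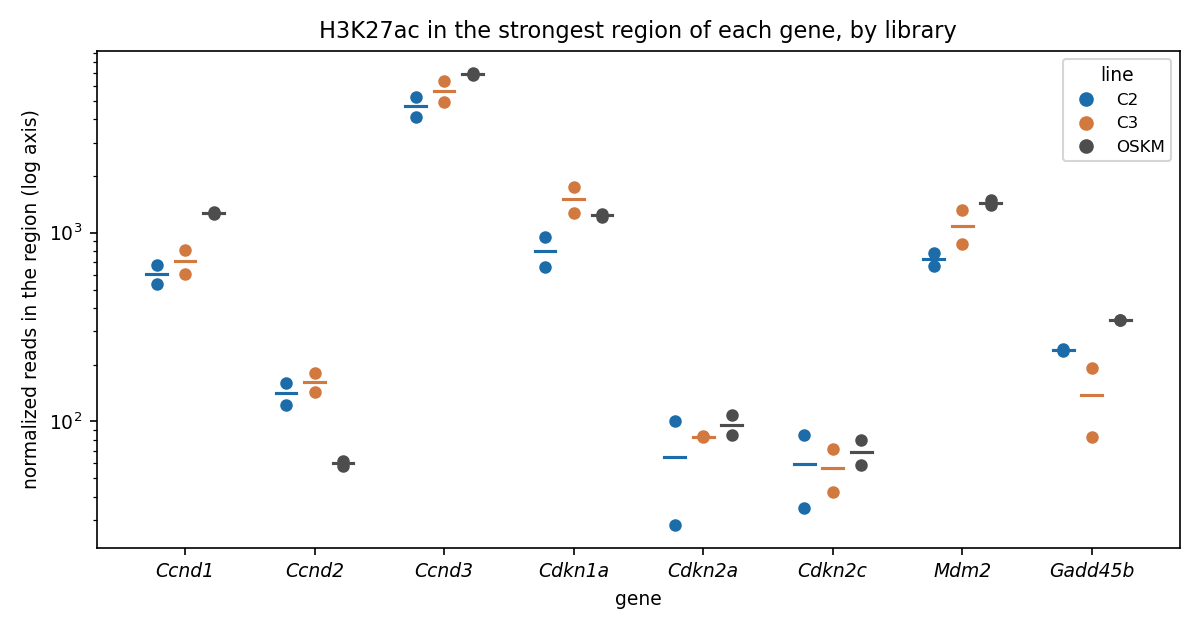
H3K27ac in the strongest region of each of the 8 genes, as normalized reads on a log axis; each point is 1 library, each bar the mean of 2, and colours give the line. At Ccnd2 all 4 C2 and C3 libraries lie above both OSKM libraries, at Ccnd1 and Mdm2 below them (the Mdm2 difference was called in C2 only), and at Cdkn1a the C2 libraries lie below and the C3 libraries above them.

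Levels between genes are compared per kb of region. In OSKM, the strongest region of Ccnd1 held 287 normalized reads per kb and that of Mdm2 281, and these overlapped between libraries. Ccnd3 followed at 236 and Cdkn1a at 164, each apart from its neighbours. Gadd45b at 115 overlapped Cdkn2c at 99.7, which overlapped Cdkn2a at 78.1. Ccnd2 was lowest at 24.3, apart from Cdkn2a. In C2, Ccnd3 stood first at 159.7, and neighbours overlapped down to Gadd45b at 79.5. Ccnd2 and Cdkn2a were last at 57.0 and 52.5, and they overlapped. In C3, Mdm2 at 212, Cdkn1a at 201, Ccnd3 at 193 and Ccnd1 at 159 formed a run of overlapping neighbours, and Gadd45b was last at 45.7. The range from the lowest to the highest gene was thus wider in OSKM than in either ATF line.

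Ccnd2, the D-type cyclin with the lowest acetylation in OSKM, was the 1 member that rose. Its strongest region, chr6:127148566-127151038, lies inside the gene near the high end of its extent (chr6:127125162-127152188), where the annotation also places the overlapping gene 9330179D12Rik, so the reads cannot be split between them. The region held 159 and 123 normalized reads in C2, 143 and 181 in C3, and 57.9 and 62.1 in OSKM. Both ATF lines were above OSKM in every library, and their own ranges overlapped. It rose by 1.21 (SE 0.28, adjusted p = 0.0333) in C2 and by 1.41 (SE 0.27, adjusted p = 0.0107) in C3. The C3 call held with each library left out. The C2 call was lost without OSKM library 1 (adjusted p = 0.101) and without OSKM library 2 (adjusted p = 0.0596). A weaker neighbour, region 2, read 16.0 and 26.9 in C2, 32.3 and 57.2 in C3, and 8.13 and 19.2 in OSKM, and was not called (adjusted p = 0.561 in C2 and 0.0897 in C3). Peaks called by the authors in the Ccnd2 window numbered 2 and 2 in the C2 libraries, 3 and 3 in C3, and 1 and 1 in OSKM. Peak number did not follow level at every member. In the Ccnd1 window, where acetylation fell, it was 5 and 5 in C2, 3 and 3 in C3, and 3 and 3 in OSKM.

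Ccnd1, the classic growth factor responsive D-type cyclin, was lower in both ATF lines. Its strongest region, chr7:144940009-144944453, starts 178 bp beyond the high end of the gene's extent (chr7:144929931-144939831). The neighbouring gene LTO1 also reaches into the Ccnd1 window, but on which side of Ccnd1 it lies was not examined. It held 678 and 535 normalized reads in C2, 810.2 and 602 in C3, and 1294 and 1254 in OSKM. Every C2 and C3 library was below both OSKM libraries, and C2 and C3 overlapped. It fell by 1.08 (SE 0.21, adjusted p = 0.0233) in C2 and by 0.87 (SE 0.25, adjusted p = 0.0420) in C3. In the authors' deposited table these differences have FDRs of 0.0601 and 0.121. Region 1, at chr7:144937114-144939892 inside the gene, held 214 and 177 in C2, 192 and 177 in C3, and 327 and 300.3 in OSKM. It fell in C3 (-0.76, SE 0.21, adjusted p = 0.0381, but an FDR of 0.162 in the authors' deposited table), and its C2 difference of -0.69 was not called (adjusted p = 0.0739). Every one of these calls was lost without either OSKM library, with adjusted p of 0.216 and 0.169 for region 2 in C2, 0.394 and 0.336 for region 2 in C3, and 0.260 and 0.153 for region 1 in C3.

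Ccnd3 carried the most acetylated chromatin of the set and changed inside the gene. Its strongest region, chr17:47503813-47533054, spans 29242 bp over the first start and held 5256 and 4081 normalized reads in C2, 6346 and 4931 in C3, and 6991 and 6838 in OSKM. Both ATF lines were below OSKM in every library, but the differences of -0.58 (SE 0.29, adjusted p = 0.222) and -0.31 (SE 0.41, adjusted p = 0.620) were not called, and under quantile normalization the C2 difference turned to 0.31. Region 22, which begins 50 bp after the second start and reaches past the gene toward Bysl, read 1472 and 1084, 1581 and 1506, and 1695 and 1704, and was not called either.

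Between these ends, regions 9, 14 and 15 fell in both ATF lines. Region 14, chr17:47564467-47573727, held 1317 and 1092 normalized reads in C2, 1223 and 1149 in C3, and 2551 and 2455 in OSKM. Both ATF lines lay well below OSKM without overlap, and they overlapped each other. It fell by 1.06 (SE 0.22, adjusted p = 0.0272) in C2 and by 1.08 (SE 0.26, adjusted p = 0.0232) in C3. Region 9 fell by 0.90 and 0.94 (adjusted p = 0.0308 and 0.0366) and region 15 by 0.86 and 1.23 (adjusted p = 0.0425 and 0.00979). The authors' deposited table has C2 FDRs of 0.133, 0.0570 and 0.170 for regions 9, 14 and 15. Its C3 FDRs for them are 0.126, 0.0205 and 0.0118. Without OSKM library 1 and without OSKM library 2 in turn, the C2 calls were lost (adjusted p = 0.396 and 0.333 for region 14, 0.198 and 0.187 for region 9, 0.192 and 0.261 for region 15). In C3 those of region 14 (0.459 and 0.397) and region 9 (0.114 and 0.109) were lost too, and that of region 15 held.

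Regions 7, 16 and 19 of Ccnd3 fell in C3 and were not called in C2. Region 19, chr17:47587199-47589064, held 26.9 and 28.1 normalized reads in C3, 73.1 and 93.7 in C2, and 109.7 and 94.9 in OSKM. The C3 libraries were apart from all others. It fell by 1.86 in C3 (SE 0.34, adjusted p = 0.00922), and the call held with each library left out. Region 7 fell by 3.73 in C3 (SE 1.07, adjusted p = 0.0420), where C3 library 1 stood at the lowest value, 1 read, and library 2 at 20.1, against 81.3 and 74.8 in OSKM. The size of this fall rested on C3 library 1: it was -1.91 without that library, -5.55 without C3 library 2 and -2.52 with a pseudocount of 8, and the call was lost under quantile normalization (adjusted p = 0.0744). Region 16 fell by 2.58 in C3 (SE 0.67, adjusted p = 0.0304), from 30.5 and 36.5 in OSKM to 3.85 and 6.02. That call was lost without C3 library 1 (adjusted p = 0.0699), OSKM library 1 (0.0960) or OSKM library 2 (0.123). The direct comparison of C2 with C3 did not call these regions (3.27, 2.16 and 1.59 higher in C2, adjusted p = 0.227, 0.369 and 0.187), so limma does not show the lines to differ there. In the authors' deposited table, that difference at region 16 has an FDR of 0.0480.

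**Figure D2:**
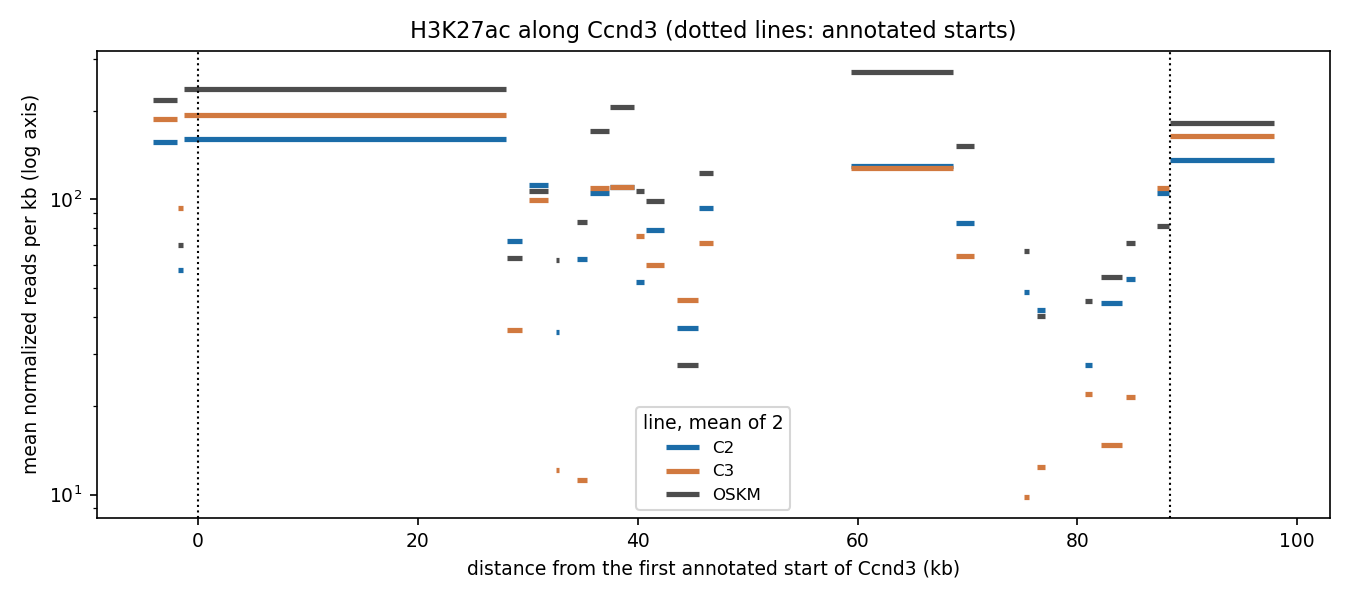
Mean H3K27ac in normalized reads per kb (log axis) in the 22 regions of Ccnd3, drawn to scale by distance in kb from the first annotated start; colours give the line (mean of 2 libraries) and dotted lines the annotated starts. Region 14, near 60 kb, stands highest in OSKM and lower and level in C2 and C3, and 3 short regions were called lower in C3 and not in C2.

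Cdkn1a, which encodes p21, had a strong region over both annotated starts that was not called in any comparison of lines. The region, chr17:29088648-29096195, held 948 and 658 normalized reads in C2, 1750.5 and 1277 in C3, and 1211 and 1260.5 in OSKM. Every C2 library was below and every C3 library above the OSKM libraries. The differences were -0.64 (SE 0.24, adjusted p = 0.112) for C2 and 0.28 (SE 0.27, adjusted p = 0.495) for C3. Under quantile normalization the C2 difference was -0.03 (adjusted p = 0.886), and the C3 difference of 0.45 was called higher (adjusted p = 0.0355). With all reads in the Cdkn1a window summed per gene, the C2 difference of -0.61 was called (adjusted p = 0.0448), in a fit that called 27.3% of 22334 genes. Region 2, 427 bp inside the gene, read 15.1 and 32.1 in C2, 16.2 and 24.1 in C3, and 6.10 and 11.0 in OSKM. It lay higher in both ATF lines without a call.

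Cdkn2a, which encodes p16Ink4a and p19Arf, was weakly acetylated in all lines. Region 2, at its first start, held 32.8 and 34.6 normalized reads in C2, 26.9 and 50.2 in C3, and 45.7 and 55.7 in OSKM. The strongest region, chr4:89294792-89296021, just upstream of that start, held 101 and 28.2 in C2, 83.9 and 82.3 in C3, and 84.3 and 108 in OSKM. The C2 libraries lay on either side of both C3 libraries and overlapped OSKM, whose library 2 was highest. Region 1, over the second start, did not exceed 23.9 in any library. No Cdkn2a region was called, with adjusted p from 0.349 to 0.705 in C2 and from 0.465 to 0.640 in C3.

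Cdkn2c, which encodes p18Ink4c, had 3 short regions near its starts, and none was called. Its strongest, chr4:109666812-109667505, ends 56 bp before the first start and held 84.9 and 34.6 normalized reads in C2, 71.6 and 42.1 in C3, and 58.9 and 79.4 in OSKM, with all 3 lines overlapping. Region 1, of 399 bp, lies 11 bp upstream of the second start and held 19.3 and 32.1 in C2, 8.46 and 8.03 in C3, and 5.08 and 4.56 in OSKM. The C2 libraries were above all others. The C2 difference was 2.16 (SE 0.75) with an adjusted p of 0.100 from limma, while the authors' deposited table gives a log2 fold of 2.41 and an FDR of 0.00455. Region 1 was described after its values were seen.

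Mdm2, the p53 target that limits p53, fell in C2. Its single region, chr10:117708689-117713836, spans the start and held 778 and 666 normalized reads in C2, 1313 and 869.9 in C3, and 1408 and 1483 in OSKM. All ATF libraries were below both OSKM libraries, and the C2 libraries were lowest. It fell by 1.00 in C2 (SE 0.20, adjusted p = 0.0254), and the call was lost without OSKM library 1 (adjusted p = 0.262) or OSKM library 2 (adjusted p = 0.284). Under quantile normalization the C2 difference was -0.38 (adjusted p = 0.114), and in the authors' deposited table it was -1.0 with an FDR of 0.0744. The C3 difference of -0.43 was not called (SE 0.28, adjusted p = 0.306), and neither was that between C2 and C3 (-0.53, 95% interval -1.35 to 0.28, adjusted p = 0.616).

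Gadd45b, a stress response gene, lost acetylation in C3 on both sides of its start. Region 4, chr10:80931421-80934425, its strongest, held 83.1 and 192 normalized reads in C3, 243 and 235 in C2, and 343 and 345 in OSKM. The lines did not overlap and ran in the order OSKM, C2, C3. It fell by 1.44 in C3 (SE 0.37, adjusted p = 0.0288), and the C2 difference of -0.53 was not called (adjusted p = 0.117). The C3 difference was -0.84 without C3 library 1 and -2.04 without C3 library 2, and it was not called under quantile normalization (-1.38, adjusted p = 0.109). Region 2, chr10:80928613-80929903, which ends 188 bp before the start, held 142 and 138 in C3, 186 and 162 in C2, and 269 and 325 in OSKM. Both ATF lines were below OSKM, and it fell by 1.07 in C3 (SE 0.22, adjusted p = 0.0142), a call lost only without OSKM library 2 (adjusted p = 0.0891). Its C2 difference was -0.77 (adjusted p = 0.0592). Region 1, upstream, held 2.31 and 12.0 in C3 against 113 and 73.0 in OSKM and 48.8 and 106 in C2, and fell by 3.83 in C3 (SE 0.74, adjusted p = 0.0114). Regions 1 and 4 kept their C3 calls with each library left out. With reads summed over the gene, the differences were -1.29 in C3 (adjusted p = 0.000202) and -0.57 in C2 (adjusted p = 0.0336), both called, where 27.6% and 27.3% of genes were.

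**Figure D3:**
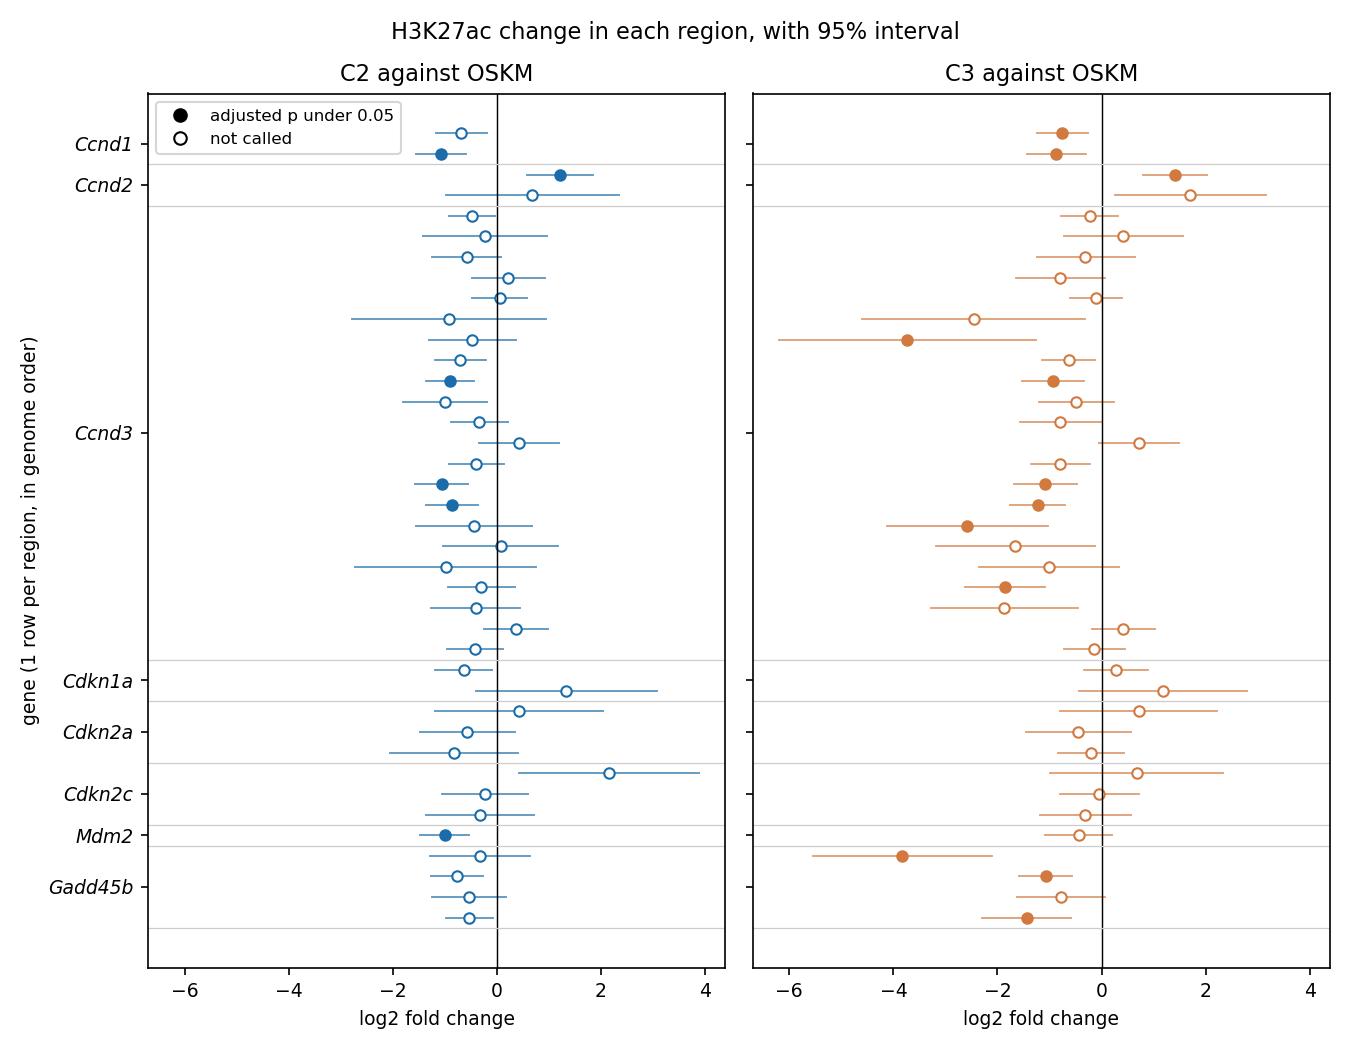
Log2 fold change of H3K27ac with its 95% interval in each of the 39 regions, C2 against OSKM on the left and C3 against OSKM on the right, 1 row per region in genome order within each gene; filled points were called at an adjusted p under 0.05. The 1 filled point above 0 in each panel is the Ccnd2 region, and the other 5 and 11 filled points lie below 0.

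C2 and C3 were compared directly in a table of their own. None of the 39 H3K27ac regions was called by limma or by edgeR, where limma called 0.0581% of 101532 regions. An unadjusted p under 0.05 was reached by 7, but the share of all regions at that threshold was not taken. The largest difference was at Gadd45b region 1, 3.52 higher in C2 (95% interval 1.73 to 5.31, adjusted p = 0.130). The authors' deposited table gives 3.47 there with an FDR of 0.00370, and 2.34 with an FDR of 0.0480 at Ccnd3 region 16, its only other call among the 39. At the 5 regions called in both lines against OSKM, the estimates were -0.18 (-0.91 to 0.56) at Ccnd1 region 2, -0.16 (-0.83 to 0.50) at Ccnd2 region 1, 0.05 (-0.82 to 0.92) at Ccnd3 region 14, 0.40 (-0.26 to 1.07) at Ccnd3 region 15 and 0.07 (-0.59 to 0.74) at Ccnd3 region 9, and every interval held 0. At Ccnd3 region 15 both C2 libraries lay above both C3 libraries. A missed threshold does not show that the lines are alike at these regions.

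H3K9me3 was found near the inhibitors and at no other member. At Cdkn2c the region, chr4:109664161-109665488, holds the second start and held 84.8 and 173 normalized reads in C2, 99.0 and 107 in C3, and 169.6 and 187 in OSKM. Both C3 libraries were below OSKM, while the C2 libraries overlapped both lines. The region fell by 0.78 in C3 (SE 0.18, adjusted p = 0.0189) and differed by -0.55 in C2 (SE 0.29, adjusted p = 0.361). The C3 call was lost without OSKM library 1 (adjusted p = 0.115) or OSKM library 2 (adjusted p = 0.189). This was the only call among the 3 regions in C3, where 9.06% of 51634 regions were called. All 3 had an unadjusted p under 0.05, but the share of all regions at that threshold was not taken. In C2 none was called by limma or edgeR, with 3.29% called over all regions, and none had an unadjusted p under 0.05. Between C2 and C3 none was called either, again with none at an unadjusted p under 0.05, where 0.134% of regions were called.

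The Cdkn2a region, chr4:89284955-89285706, lies inside the gene between its starts. It held 28.7 and 43.2 normalized reads of H3K9me3 in C2, 23.4 and 12.4 in C3, and 44.3 and 41.1 in OSKM. The C3 libraries were lowest, and the differences of -1.28 in C3 (SE 0.47, adjusted p = 0.121) and -0.27 in C2 (SE 0.40, adjusted p = 0.785) were not called. The authors' deposited table gives -1.26 for C3 with an FDR of 0.0287. At Cdkn1a the region starts 197 bp past the end of the gene and held 111 and 127 in C2, 147 and 166 in C3, and 101 and 109 in OSKM. It was highest in C3, without a call (0.57, SE 0.19, adjusted p = 0.0862).

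**Figure D4:**
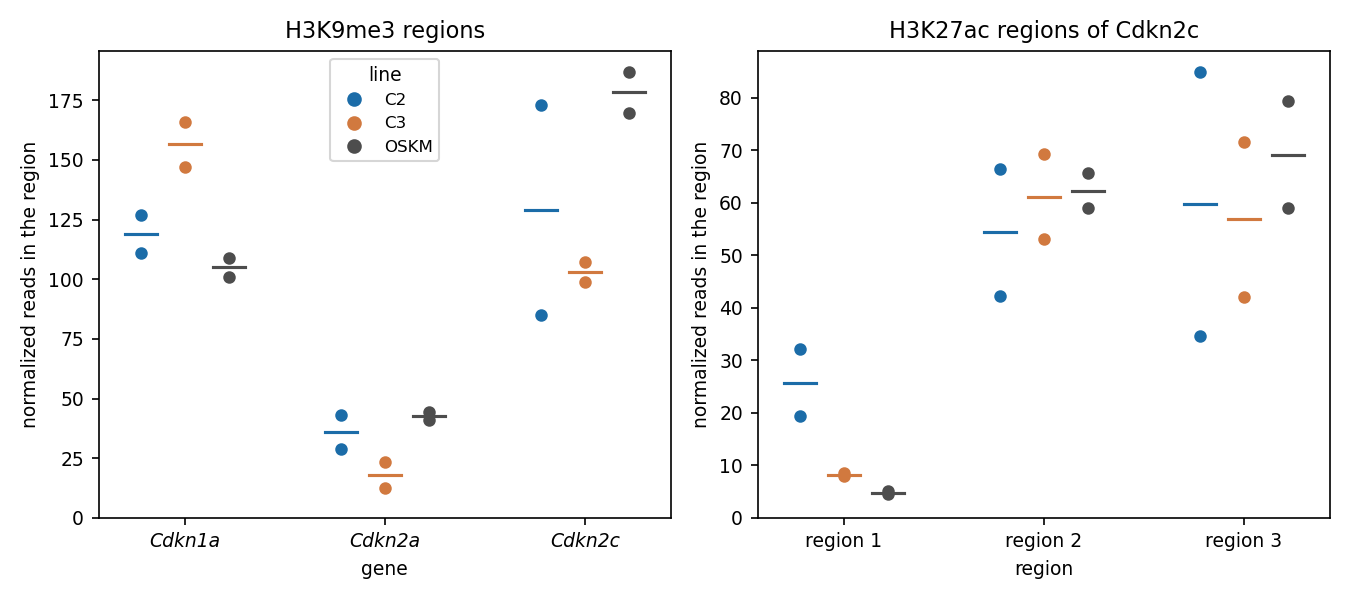
Left, H3K9me3 in the 3 regions at Cdkn1a, Cdkn2a and Cdkn2c, and right, H3K27ac in the 3 regions of Cdkn2c, as normalized reads; each point is 1 library, each bar the mean of 2, and colours give the line. The Cdkn2c H3K9me3 region is lower in both C3 libraries than in OSKM, and H3K27ac region 1 of Cdkn2c is highest in the C2 libraries, without a call.

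HA peaks marked where the tagged factors, or the antibody alone in the empty-vector cells, gave enrichment at day 20. No HA peak fell in the window of any of the 8 genes in either C2 library or either empty-vector library, out of 12376 and 44939 peaks in C2 and 10666 and 22632 in the empty-vector libraries. The share of all genes with an HA peak in such a window was not taken. This absence therefore cannot be read as particular to these genes. The HA libraries kept 1629753 to 3896935 tags after duplicate removal. The nearest peak to a gene extent was 17282 bp from Mdm2, in C2 library 2. The nearest peak to Ccnd1 lay 400870 and 400918 bp away in C2 and 400957 and 400861 bp away in the empty-vector libraries, and was thus also called without the factors.

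The other genes of the pathway were read from the strongest H3K27ac region of each. In C2, 10 of 37 fell by limma (18 by edgeR) and none rose, by limma, by edgeR or at an unadjusted p under 0.05. In C3, 1 rose and 1 fell (2 and 2 by edgeR). Over the strongest region of every gene, 13.1% were called in C2 (9.70% lower, median -0.32) and 17.6% in C3 (8.72% lower, median -0.16). Strong regions as a class were lower in C2, and the lists were not matched for level. Of all regions averaging 1000 or more normalized reads, 29.0% fell in C2, with a median of -0.70. Of those averaging 100 to 1000, 13.0% fell, with a median of -0.32. p53 and its targets, 22 genes of which 21 were tested, had 7 lower in C2 and none in C3, with medians of -0.76 and -0.22. At an unadjusted p under 0.05, 15 were lower in C2 and none in C3, and edgeR called 13 and none. The share over the strongest region of every gene was not taken for edgeR or at an unadjusted p. These counts therefore cannot be set beside it. Over all 100957 tested regions in C2, edgeR called 14675 and limma 10691. The 7 lower by limma were Trp53 itself, Mdm4, Ccng1, Trp53inp1, Zmat3, Eda2r and Aen. Mdm4, a partner of Mdm2 in restraining p53, held 1117 and 775 normalized reads in C2 against 2139 and 2434 in OSKM (-1.29, SE 0.25, adjusted p = 0.0220), and 2141 and 1221 in C3. Mdm4 was lower in both C2 libraries than in any other library.

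Among CDK partners and inhibitors, 9 genes, Cdk4 fell in C2 (-0.78, SE 0.21, adjusted p = 0.0492) and Ccne2, an E-type cyclin, rose in C3 (1.03, SE 0.29, adjusted p = 0.0376). The medians of this list were -0.33 in C2 and -0.15 in C3. Among pocket proteins and E2F factors, 6 genes, Rbl1 and Rbl2 fell in C2 and Rbl2 in C3, with medians of -0.81 and -0.38. Rbl2, the p130 pocket protein, held 145 and 30.8 normalized reads in the C2 libraries, 318 and 174 in those of C3 and 474 and 533 in those of OSKM, and it fell by 2.88 (SE 0.58, adjusted p = 0.0250) and 1.10 (SE 0.30, adjusted p = 0.0371). Rbl2 lies on chromosome 8, which took 7.48% to 7.61% of H3K27ac reads in OSKM and 3.46% to 4.29% in C2 and C3. No member lies on that chromosome. Of the 10 C2 calls in the 3 lists, 1, that of Rbl2, held with each library left out. The highest adjusted p reached was 0.390 for Cdk4 and 0.208 for Mdm4 in C2, and 0.228 for Ccne2 and 0.0761 for Rbl2 in C3.

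**Figure D5:**
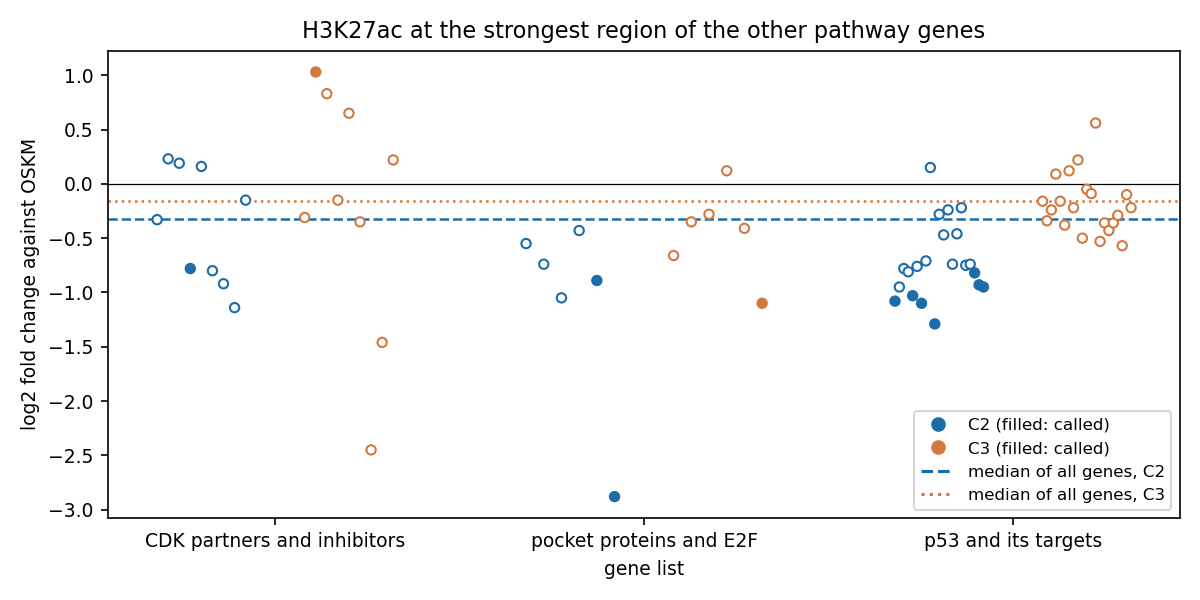
Log2 fold change of H3K27ac against OSKM at the strongest region of each gene in 3 pathway lists; each point is 1 gene, blue for C2 and orange for C3, filled where called, and horizontal lines give the median over the strongest regions of all genes, -0.32 in C2 and -0.16 in C3. In the p53 list the 7 filled C2 points lie between -1.29 and -0.82, and no C3 point is filled.

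For H3K9me3, 7 of the 37 genes had a region, and 2 fell in C2 and 4 in C3, where 6.47% and 18.4% of genes were called. Sesn1 and Trp53inp1, both p53 targets, fell in both lines. Aen (-1.03, SE 0.15, adjusted p = 0.00121) and E2f3 (-1.61, SE 0.46, adjusted p = 0.0459) fell in C3 and were not called in C2. The C3 call of Aen held with each library left out, and that of E2f3 was lost. Both Sesn1 calls were lost when a library was left out, with a highest adjusted p of 0.122 in C2 and 0.111 in C3. Trp53inp1 had 2177 and 2265 normalized reads in C2, 2077 and 2024 in C3, and 3325 and 3071 in OSKM. Both ATF lines were below OSKM, by 0.52 (SE 0.13, adjusted p = 0.0467) in C2 and by 0.64 (SE 0.07, adjusted p = 0.000282) in C3. Strong H3K9me3 regions as a class were lower too. Of the 181 averaging 1000 or more normalized reads, 37.6% fell in C2 and 53.6% in C3, with medians of -0.43 and -0.35. The C3 call of Trp53inp1 held with each library left out, with a highest adjusted p of 0.00706, and the C2 call was lost, with a highest of 0.658.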

How the data were processed

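The deposited files are 6 region tables, each for 1 mark and 1 pair of lines, and a peak file for each of the 12 histone and 4 HA libraries. Per the submitters' processing notes, the authors worked on the mm10 build, with DiffBind 1.16.2, Bowtie2 2.2.5 and SAMtools 1.3 among their tools. In the region tables, the authors' values are normalized reads (a signal) for each of 4 libraries, beside the log2 fold, p-value and FDR of their own test. MACS 2.1.0.20150731 (histone) and MACS 2.1.1.20160309 (HA) called the peaks of single libraries against an input at a q-value of 0.01, per the file headers, and these deposited files give a pileup, a fold enrichment (a ratio) and -log10 p and q. Whether input reads were subtracted from the tables is not given in the sources used here.

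Each pair of lines was fitted in its own table with limma 3.58.1 (R 4.3.3) on log2(normalized reads + 1), leaving out the 25% of regions with the lowest mean and adjusting p-values by Benjamini-Hochberg over all regions tested. Every region table value was a whole multiple of 1 read within a tolerance of 1e-06, and edgeR 4.0.16 was run on those whole read counts, recovered from the signal deposited by the authors, as an alternative. The test was tried on simulated data first. For levels, C3 was set on the scale of the C2 and OSKM table through the OSKM libraries, whose factors differed by 0.114% (H3K27ac) and 1.883% (H3K9me3). Members and gene lists were chosen with earlier results of these data known. For each member the strongest region, any region holding a start and any called region are named, and regions 2 of Ccnd2 and Cdkn1a, 22 of Ccnd3 and 1 of Cdkn2c were added after their values were seen. Other steps used Python 3.11.15, NumPy 2.4.6, pandas 2.3.3 and matplotlib 3.10.9.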

Additional observations from a re-analysis of the deposited data

Results flagged for a closer look

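The H3K27ac region over both starts of Cdkn1a drew a closer look because every C2 library was below and every C3 library above the OSKM libraries. The difference between the lines was tested in the table that compares them: C2 was lower than C3 by a log2 difference of -0.88 (SE 0.41, 95% interval -1.76 to -0.01), with an adjusted p of 0.404 from limma. Under quantile normalization the difference was -0.45 (adjusted p = 0.307). Over the alternatives of that comparison the adjusted p ran from 3.85e-08 with the replicate number as a block to 1.00 without C2 library 2 or C3 library 1.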

How the results depend on the processing

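Counts of member regions called with H3K27ac in C2 against OSKM (6) changed to 1 under quantile normalization, 10 with median-centred libraries and 2 in the authors' deposited table. In C3 against OSKM (12) the count was 3 when reads were summed per gene. For C2 against C3 (0) it was 2 with all regions fitted and 2 in the authors' deposited table. For H3K9me3 in C3 against OSKM (1) it was 2 under quantile normalization and 2 in the authors' deposited table. The causes were not tested, except that summing leaves 8 genes in place of 39 regions. Leaving out 1 library at a time gave 0 to 16, 7 to 16 and 0 to 3 calls for H3K27ac in C2 against OSKM, C3 against OSKM and C2 against C3. For H3K9me3 it gave 0 to 1, 0 to 3 and 0 calls. In these fits the lone library is assumed to vary like the other group. The count of 0 in C2 against OSKM came without OSKM library 1 or 2, and the count of 16 without C2 library 1. HA peaks stayed at 0 under each alternative.

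The replicate number as a block is not a labelled pairing. Same-numbered H3K27ac libraries had deviations correlated at -0.05, -0.04 and 0.35 in the 3 comparisons. With the block, calls numbered 7, 13 and 7 for H3K27ac in C2 against OSKM, C3 against OSKM and C2 against C3, and 0, 1 and 0 for H3K9me3.

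Directions reversed in 7 of the 26 region results that were not called, and in none of the 19 that were. Under quantile normalization the C2 difference was 0.31 at Ccnd3 region 3 and -0.14 at Cdkn2a region 1. With 1 library left out, H3K27ac differences in C2 ran from -1.72 to 0.08 at Cdkn2a region 3, from -0.96 to 0.31 at Cdkn2c region 3 and from -0.88 to 0.23 at Gadd45b region 1. In C3 that of Cdkn2c region 3 ran from -0.69 to 0.06, and in C2 the H3K9me3 difference at Cdkn2a ran from -0.56 to 0.02. The median of all H3K27ac regions in C2 against OSKM moved from -0.01 to -0.13 with median-centred libraries and 0.09 in edgeR.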
